A study of Mus musculus with 6 samples.

Results

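The myogenic regulators described here are 7 genes that set up and restrain skeletal muscle: Pax7, Myf5, Myod1, Myog, Myf6, Mef2c and Mstn. They were listed by symbol, and each had exactly 1 named non-control probe on the array, so 7 of 27497 named probes belong to them. The 6 arrays profiled messenger RNA of untreated skin from male mice whose mixed background was C57Bl6/129Sv. The skin is described as taken while hair follicles rested (telogen), but growing hair markers were high in KO replicates 1 and 2. The 3 wild-type (WT) arrays came from mice 20, 19 and 18 weeks old. The other 3 came from mice with Sox4, a SoxC transcription factor, conditionally deleted in skin (KO), which were 17, 18 and 16 weeks old. The labels used here do not name the promoter that drove the deletion, nor do they say whether muscle under the skin was removed or kept. Whether each array is a separate animal is not stated either, although the 3 ages within each group differ. The p-values thus measure the spread between these arrays, which may be partly technical.

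Skeletal muscle is built from satellite cells, its stem cells, which carry the paired-box factor Pax7. Myf5 and Myod1 are basic helix-loop-helix factors that commit cells to the muscle lineage, and Myog and Myf6 of the same family act in differentiation, Myf6 being the member that stays abundant in mature fibres. All of this family bind the short sequence called the E-box. Mef2c, a MADS-box factor, acts beside them at muscle promoters and is also made in endothelium, some leucocytes and nerve cells. Mstn encodes myostatin, a secreted TGF-beta family ligand that limits muscle mass and is made mainly by muscle fibres. In mouse skin, striated muscle lies in the thin panniculus carnosus sheet below the fat.

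Sox4, the deleted gene, was low in each KO skin. The signal of its brighter probe was 503.7, 764.2 and 735.2 units in the 3 WT skins, against 78.7, 69.0 and 59.5 in the KO skins (log2 fold change −3.56, SE 0.13; limma adjusted p = 0.00135). Whether this probe lies in the deleted part was not tested. Epidermal and dermal markers were well above background on all 6 arrays for each of the 9 genes measured of that list, Col1a1 and Krt5 among them. Between 52.1% and 66.4% of probes were well above background per array, and no spot was saturated. Values below are log2 signals relative to the 75th percentile of each array, so 0 is that percentile and each log2 unit is a doubling. Fold changes are KO minus WT. Signals printed in units are those before this step, so their order and spans can differ from those of the log2 values. That percentile ran from 379.8 units in WT replicate 1 to 605.5 in KO replicate 1. In bulk skin, fewer cells of a type and less RNA per cell cannot be told apart.

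None of the 7 regulators passed the test across all genes (limma with Benjamini-Hochberg adjustment over 22823 genes and transcripts, threshold 0.05). The background was low: 5 of 22823, or 0.0219%, passed. At an unadjusted p under 0.05 stood 2 of the 7, Myf6 and Mef2c, against 11.8% of all genes and transcripts. For 3 of the 7, Myf6, Mef2c and Mstn, every KO value lay above every WT value, against 7.56% of all tested. None lay wholly below WT, where 11.8% of all tested did. The filter kept 5 of the 7, and Myod1 and Myog passed it only through the KO group, since WT replicate 2 was not well above background for either; Pax7 and Myf5 did not pass it.

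**Figure D1:**
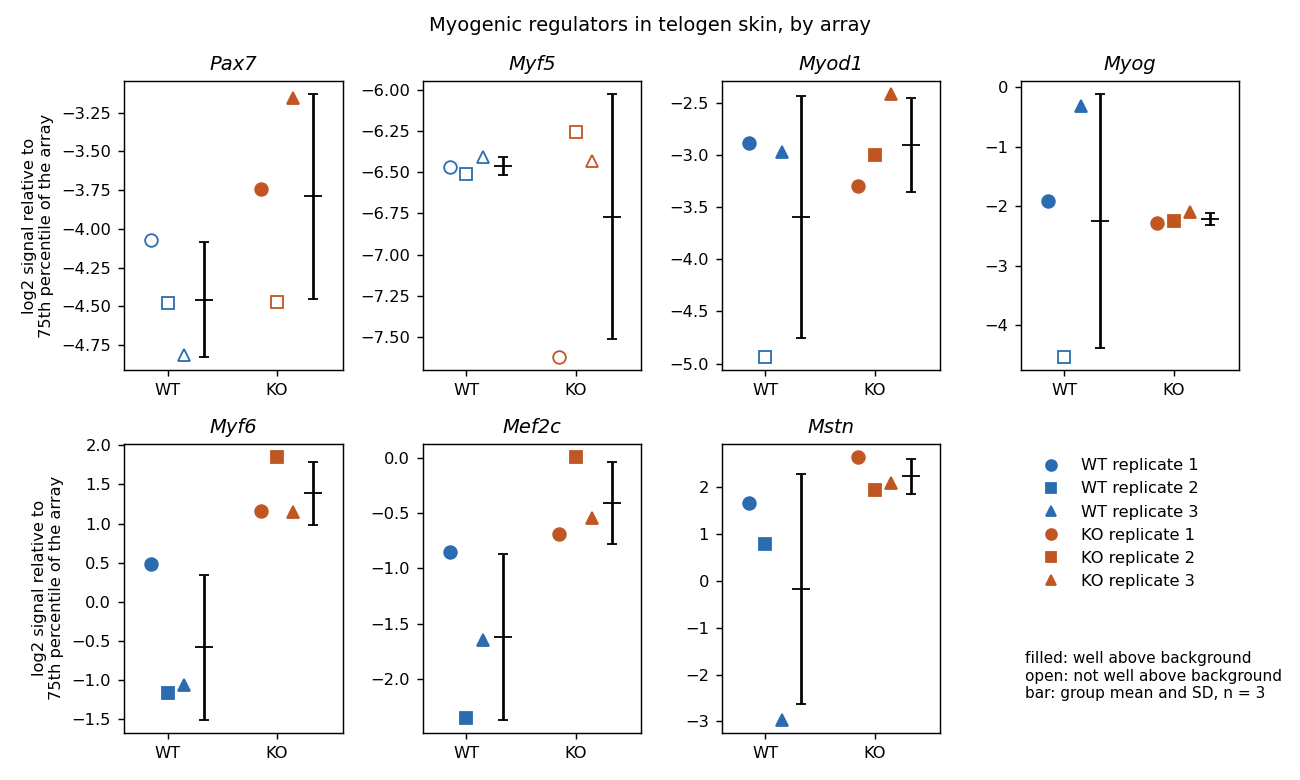
Log2 signal of each of the 7 regulators relative to the 75th percentile of the array, 1 point per array, with the group mean and SD (n = 3); open points are not well above background, and each panel has its own axis. KO points sit above all WT points for Myf6, Mef2c and Mstn, while for Myog the 3 KO points lie between the lowest and highest WT points.

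Pax7 was at the edge of detection. Its signal was 22.6, 21.8 and 15.5 units in WT replicates 1, 2 and 3 and 45.3, 22.9 and 55.4 units in KO replicates 1, 2 and 3. It was well above background on 2 of 3 KO arrays and on no WT array. In units KO replicate 2 lay just above the WT values. On the log2 scale it read −4.47, inside the WT range of −4.81 to −4.07. Because no WT array and not every KO array measured Pax7, no fold is given. The measured means were −4.46 ± 0.37 in WT and −3.79 ± 0.66 in KO (SD, n = 3), with limma adjusted p = 0.798 in the fit without a filter and exact permutation p = 0.2. Their difference was 0.67, and 0.11 with another background correction.

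Myf5 was not detected in any skin. It read between 3.07 and 6.65 units, and 0 of its 10 spots per array was well above background on any of the 6 arrays. Any fitted difference of Myf5 given below therefore compares signals at background and is not read as a fold. Myf5 and Myf6 are direct neighbours on chromosome 10 in the RefSeq order of genes, yet Myf6 was well above background on all 6 arrays.

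Myod1 was low but measured on 5 arrays. Its 10 spots averaged 51.3, 15.9 and 55.7 units in WT replicates 1, 2 and 3 and 61.6, 63.5 and 92.3 units in KO replicates 1, 2 and 3. WT replicate 2 stood below all others, with 2 of 10 spots well above background. In units WT replicates 1 and 3 also lay below the KO values. On the log2 scale they read −2.89 and −2.97, among the KO values of −3.30, −3.00 and −2.42. The group means were −3.60 ± 1.16 in WT and −2.91 ± 0.45 in KO (SD, n = 3), a log2 fold change of 0.69 (SE 0.57; limma adjusted p = 0.611), smaller than the spread within WT. On the slides that held both groups it was 0.47 and 0.66. Without WT replicate 2 the difference was 0.02, so the mean difference rested on that array.

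Myog differed widely between WT skins and little between KO skins. Its 10 spots averaged 101.3, 21.1 and 352.6 units in WT replicates 1, 2 and 3 and 124.2, 107.5 and 115.4 units in KO replicates 1, 2 and 3. WT thus held both the lowest and the highest skin, while the KO arrays spanned 1.14-fold. The lowest, WT replicate 2, was not well above background, with 1 of 9 usable spots passing, so no fold is given for the WT span. On the log2 scale the SD over replicate spots within an array ran from 0.07 to 0.30, against an SD of 2.13 over the 3 WT arrays, the undetected one included. The log2 fold change was 0.04 (SE 0.97; limma adjusted p = 0.986), and its sign turned to −0.25 with another background correction. It was −1.10 without WT replicate 2, 1.01 without WT replicate 3 and −0.01 without KO replicate 3, so single arrays set its sign. On slides 1 and 2 it was −0.19 and 0.14.

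Each KO skin had more Myf6 signal than the highest WT skin. Its probe read 530.9, 217.7 and 208.5 units in WT replicates 1, 2 and 3 and 1350.6, 1833.8 and 1089.5 units in KO replicates 1, 2 and 3. WT replicate 1 lay nearest to KO, and the gap between it and the lowest KO array was 0.66 log2 units. The means were −0.58 ± 0.92 in WT and 1.38 ± 0.41 in KO (SD, n = 3), a 3.91-fold difference (log2 1.97, SE 0.47; limma adjusted p = 0.274; exact permutation p = 0.1, the smallest that 3 against 3 arrays allow). Slide 1 alone gave 0.66 and slide 2 alone gave 2.27. A fit with slide as a block, in which the lone array of slide 3 (KO replicate 2) has no weight, gave 1.58 (adjusted p = 0.560). Without WT replicate 1 it was 2.50 and passed (limma adjusted p = 0.0404), and over the 16 alternatives adjusted p ran from 0.0404 to 0.9995. With age as a covariate it was 3.10 (adjusted p = 0.0772); KO mice were younger on average, so age and genotype are partly confounded.

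Mef2c followed the same order of groups with a smaller step. It read 211.0, 95.4 and 139.1 units in WT replicates 1, 2 and 3 and 374.7, 511.8 and 338.3 units in KO replicates 1, 2 and 3. The groups did not overlap, but WT replicate 1 and the lowest KO array were only 0.16 log2 units apart. The means were −1.62 ± 0.75 and −0.41 ± 0.37 (SD, n = 3), a 2.31-fold difference (log2 1.21, SE 0.39; limma adjusted p = 0.346; exact permutation p = 0.1). Slide 1 alone gave 0.30, slide 2 alone 1.31, the slide block 0.88 and age as a covariate 1.89 (adjusted p = 0.248). Over the 16 alternatives its adjusted p ran from 0.0953 to 0.9995.

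Mstn had the largest mean difference and the widest spread. It read 1206.8, 846.2 and 55.9 units in WT replicates 1, 2 and 3 and 3810.5, 1965.6 and 2119.6 units in KO replicates 1, 2 and 3. WT replicate 3 lay far below every other skin, and the WT arrays spanned 24.8-fold against 1.63-fold in KO. The means were −0.17 ± 2.46 and 2.24 ± 0.37 (SD, n = 3), a 5.29-fold difference (log2 2.40, SE 1.13; limma adjusted p = 0.461; exact permutation p = 0.1). Without WT replicate 3 the difference was 1.004. Slide 1 alone gave 0.44, slide 2 alone 3.74, the slide block 2.32 and age as a covariate 4.65, and adjusted p ran from 0.264 to 0.9995 over the 16 alternatives.

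**Figure D2:**
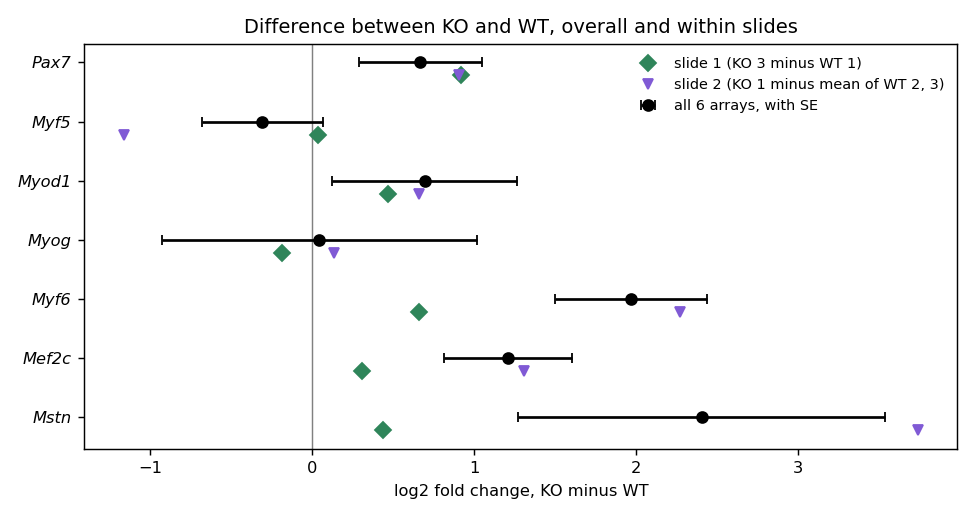
Log2 fold change of each regulator, KO minus WT, over all 6 arrays with its standard error (black), and within the slides that held both groups (coloured). For Myf6, Mef2c and Mstn the difference on slide 1 (0.66, 0.30 and 0.44) is smaller than on slide 2 (2.27, 1.31 and 3.74); the fit gave Pax7 and Myf5 values although their signals were mostly not well above background.

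The sequence before the start site of Myog and of Mstn is shown because these genes had the largest SDs among WT skins, and because E-boxes there are the letters that the helix-loop-helix members read. RefSeq windows of assembly GRCm38.p6 were held for 5 of the 7 regulators; those of Myod1 and Myf6 are not shown. The 250 bases before the start are printed on the strand of the gene, with E-boxes (CANNTG, either strand) in capitals, at chr1:134289754-134290003 for Myog and chr1:53061390-53061639 for Mstn, both on the plus strand.
Myog: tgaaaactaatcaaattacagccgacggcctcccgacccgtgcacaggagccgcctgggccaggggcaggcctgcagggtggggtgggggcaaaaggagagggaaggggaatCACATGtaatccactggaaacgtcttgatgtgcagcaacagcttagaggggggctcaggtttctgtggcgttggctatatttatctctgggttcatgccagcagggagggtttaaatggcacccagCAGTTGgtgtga
Mstn: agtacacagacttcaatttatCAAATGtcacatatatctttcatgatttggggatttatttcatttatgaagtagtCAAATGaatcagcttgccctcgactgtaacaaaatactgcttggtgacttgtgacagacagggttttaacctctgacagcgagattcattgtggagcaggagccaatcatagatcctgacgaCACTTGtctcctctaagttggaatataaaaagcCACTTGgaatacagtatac
The Myog window held 2 E-boxes, the nearer one 7 to 12 bases before the start, and the Mstn window held 4, the nearest 14 to 19 bases before the start. Of 32851 such windows of 250 bases, 66.2% held CANNTG, so its presence does not set these genes apart. Of the 3 start sites of Mef2c, 2 had an E-box, and the windows of Pax7 and Myf5 had none. The E-box form CAGCTG, present in 13.0% of all windows, was in none of the 7 windows of the regulators, and neither was the MEF2 consensus in its strict form (2.92% of all windows). The Myog window does hold ctatatttat, which misses that strict form only at its last letter, and looser forms were not searched. A match is a description of letters only.

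Myf6 and Mef2c ran with the muscle fibre genes of each skin. The filter kept all 32 genes of the contractile apparatus, calcium handling and energy supply. Of these, 29 had positive fold changes and none passed the test. The 3 negative ones were the slow myosin Myh7 (−0.68) and the slow-fibre troponins Tnnt1 (−0.48) and Tnni1 (−0.48), each with overlap. Wholly above WT lay 22 of the 32, against 7.56% of all tested. The median was 1.71, against −0.09 over all genes. Atp2a1, the calcium pump of fast fibres, differed by 2.17 (SE 0.53; limma adjusted p = 0.274), Pygm, glycogen phosphorylase, by 2.04, the intermediate filament gene Des by 1.55 and the calcium channel gene Cacna1s by 1.77. The mean log2 level of the list was 4.56, 2.98 and 3.12 in WT replicates 1, 2 and 3 and 4.97, 5.36 and 4.93 in KO replicates 1, 2 and 3, and its summed level ran from 914.3 to 3263 in WT and from 3824 to 5139 in KO, in multiples of the 75th percentile. WT replicate 1 exceeded both other WT arrays for 28 of the 32. At least 31 of the 32 were well above background on every array.

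Across the 6 arrays Pearson's r with that list mean was 0.995 for Myf6 and 0.965 for Mef2c, a description over points that include both groups. It was 0.76 for Mstn, 0.62 for Myod1, 0.59 for Pax7 and 0.13 for Myog. Set against the list mean of the same array, Myf6 lay at −4.07, −4.14 and −4.19 in WT and −3.81, −3.51 and −3.79 in KO, so the groups still did not overlap but the difference shrank from 1.97 to 0.43 (exact permutation p = 0.1). Mef2c on that scale overlapped between groups, with a difference of −0.33, and Mstn differed by 0.87 with overlap. With the list mean as a covariate the limma differences were 0.28 for Myf6, −0.08 for Mef2c and 0.16 for Mstn (adjusted p = 0.9995 for each). The mean RNA level of the fibre markers and genotype vary together here, so their parts cannot be told apart. How much fibre each skin held was not measured.

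**Figure D3:**
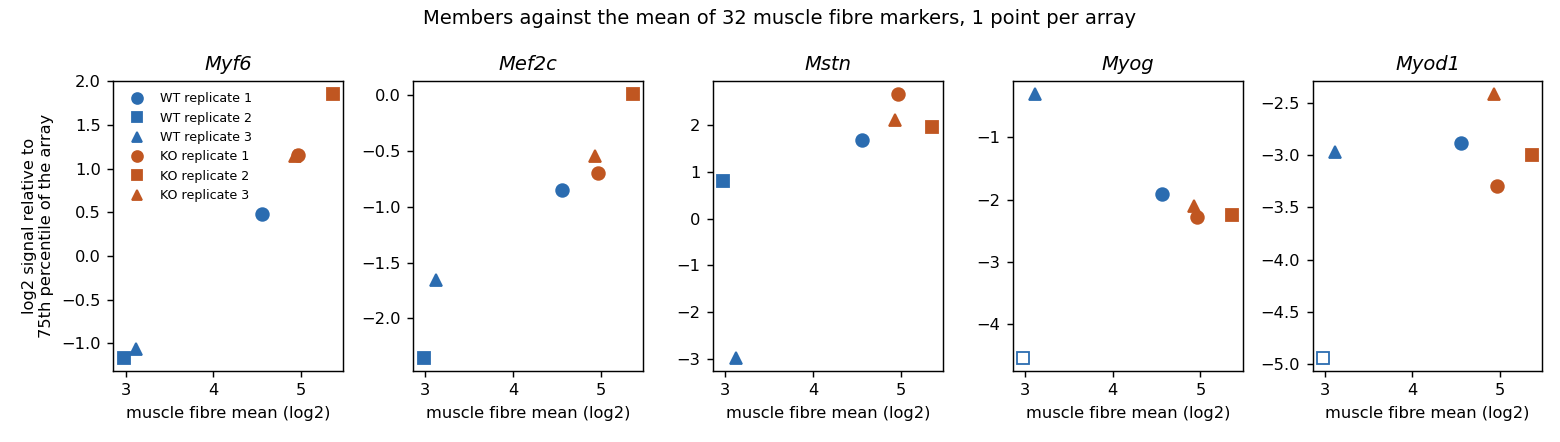
Log2 signal of 5 regulators (vertical) against the mean log2 level of 32 muscle fibre markers on the same array (horizontal), 1 point per array; open points are not well above background. Myf6 and Mef2c climb with the fibre mean through both groups (r = 0.995 and 0.965), whereas at nearly the same fibre mean WT replicate 3 has the highest Myog and WT replicate 2 the lowest.

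WT replicates 2 and 3 had nearly the same fibre mean and close Myf6 values (−1.16 and −1.07), but differed in Myog, Myod1 and Mstn. Myog and Myod1 were lower in WT replicate 2, and Mstn was lower in WT replicate 3. The genes named next were picked after their values were seen, as those of the gene lists whose value on 1 array lay at least 1 log2 unit beyond all 5 others, and they carry no test. In WT replicate 3, 57 of 22823 genes and transcripts (0.25%) stood that far above and 48 (0.21%) that far below all other skins. Among 204 genes of the lists and regulators, 7 stood above. They were Myog, the myoblast fusion proteins Mymx and Mymk, the embryonic light chain Myl4, the slow-fibre troponins Tnni1 and Tnnt1, and the cardiac and developmental troponin Tnnt2. Mymx read 0.46 in WT replicate 3 against −4.11 to −3.01 in the other 5 skins, and Myl4 3.68 against 0.99 to 1.48. The 4 that stood below were Mstn, the fast IIb myosin Myh4, the fast myosin-binding protein Mybpc2 and the fast-fibre actinin Actn3. Myh4 read 5.04 there against 7.64 to 8.90 elsewhere.

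In WT replicate 2 the lowest values were those of Myod1 and Myog together with acetylcholine receptor subunits. Myog, Myod1 and the receptor subunit genes Chrnd and Chrnb1 were not well above background there, so their distance from the next lowest skin is not given as a size. Of the genes still measured, the fast IIa myosin Myh2 lay 2.14 log2 units below the next lowest skin, the cofactor Vgll2 1.41 and the receptor subunit gene Chrna1 1.07. Over all genes, 141 (0.618%) stood that far below the others in WT replicate 2 and 635 (2.78%) in KO replicate 2. No regulator stood 1 unit apart in any other skin among the 5 that the filter kept.

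**Figure D4:**
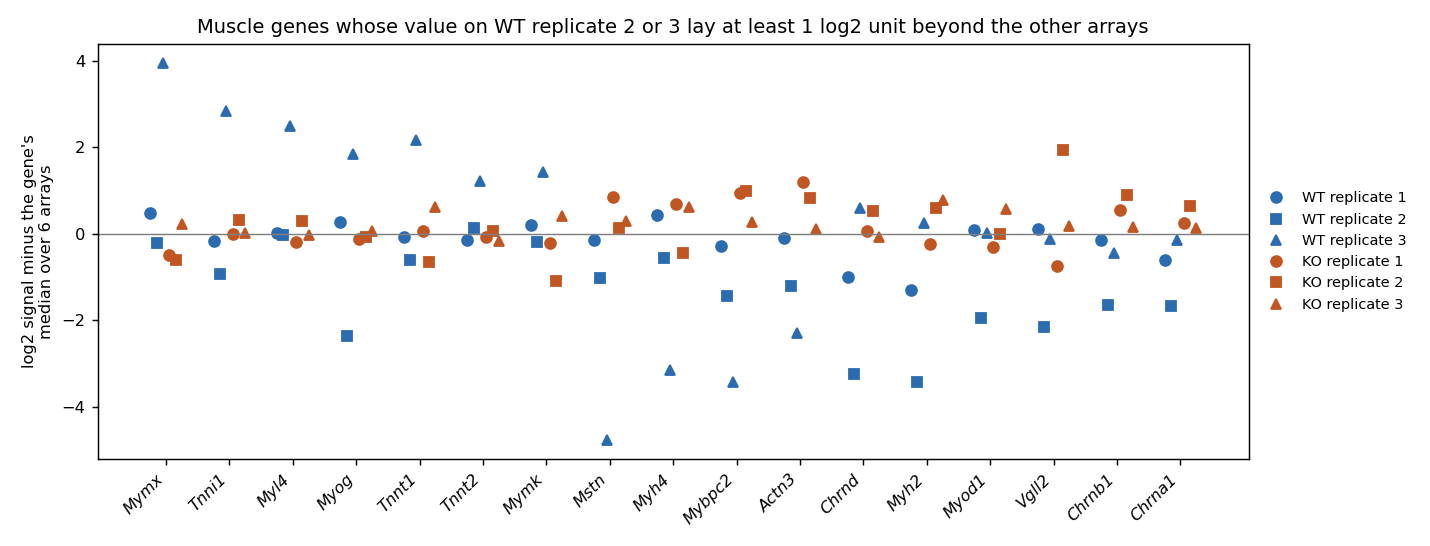
Log2 signal minus the median of that gene over the 6 arrays for the 17 muscle genes whose value on WT replicate 2 or WT replicate 3 lay at least 1 log2 unit beyond all other arrays; genes were picked for this gap. WT replicate 3 is high for Mymx, Tnni1, Myl4 and Myog and low for Mstn and Myh4, and WT replicate 2 is low for Myog, Myod1 and the receptor subunit genes, of which Myog, Myod1, Chrnd and Chrnb1 were not well above background there.

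Among other transcription factors and cofactors of the pathway, 37 of 40 were kept, and none passed the test in either direction. Their median fold change was −0.06, near that of all genes, with 15 positive and 22 negative. Of the 37, 4 lay wholly above WT and 5 wholly below, against 7.56% and 11.8% of all tested. The smallest p belonged to Mef2d, a relative of Mef2c (0.70, SE 0.21; limma adjusted p = 0.310), then Lbx1, a factor of migrating muscle precursors (0.65), and Six4, which acts upstream of the helix-loop-helix genes (1.14). Mef2a, added after its values were seen, had −0.48 and lay wholly below WT. The list median changed sign in 2 of the 16 alternatives.

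Satellite cell and fusion genes showed no common direction. Of 19 satellite cell genes 16 were kept, 8 positive and 8 negative, with a median of −0.02, and none passed; this median changed sign in 4 of the 16 alternatives. The cadherin Cdh15 of muscle precursors had 1.74 (SE 0.44; limma adjusted p = 0.278) without overlap, the Notch target Heyl 0.68 and its relative Hes1 −0.41, also without overlap, and Vcam1 −0.66 with overlap. Of the 16, 2 lay wholly above WT and 1 wholly below, against 7.56% and 11.8% of all tested. Calcr, the calcitonin receptor of quiescent satellite cells, was not well above background on any of the 6 arrays. Of 14 commitment and fusion genes 11 were kept (5 positive, 6 negative, median −0.13), and none passed; Stab2 had 0.72, Adgrb1 0.49, Jam2 −0.35 and Dock1 −0.24.

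Of 22 genes of the myostatin pathway 20 were kept, 8 positive and 12 negative, with a median of −0.08, and none passed. Wfikkn2, a secreted antagonist that binds myostatin, read −2.26, −2.78 and −3.02 in WT replicates 1, 2 and 3 and −1.65, −0.76 and −1.40 in KO (fold change 1.42, SE 0.29; limma adjusted p = 0.274). The groups of Wfikkn2 did not overlap. The receptor gene Acvr2b had 0.59 and its signal carrier Smad3 0.35, both without overlap, while Acvr1b had 0.21 with overlap. Of the 20, 3 lay wholly above WT and 0 wholly below, against 7.56% and 11.8% of all tested. Named after their values were seen, follistatin, Fst, an inhibitor of the ligand, had −0.17 (adjusted p = 0.629), and the close relative Gdf11 was well above background on 2 arrays and was not kept.

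Neuromuscular junction genes had a median of 0.96 over 9 of 11 kept, 6 positive and 3 negative, and none passed. This median was 0.37 without WT replicate 2, 0.48 with normexp background correction and 0.21 with the muscle fibre mean as a covariate. Dok7, an activator of the synaptic kinase, had 2.07 (SE 0.49; limma adjusted p = 0.274), Ache, acetylcholinesterase, 0.96, Chrnb1 1.28 and Chrna1 1.15, each wholly above WT. Of the 9 junction genes, 4 thus lay wholly above WT and 0 wholly below, against 7.56% and 11.8% of all tested. Dok7 was not well above background in WT replicates 2 and 3, nor Chrnb1 in WT replicate 2, and both passed the filter through KO. The fitted values of Dok7 and Chrnb1 and their place above WT therefore rest partly on undetected signals. The fetal receptor subunit Chrng was well above background on 2 arrays and the adult subunit Chrne on 1, so neither was kept. Of 10 developmental and denervation genes 9 were kept, 4 positive and 5 negative (median −0.0013, with the sign turned in 7 of the 16 alternatives), and none passed. The ubiquitin ligase Trim63 had 1.75, the perinatal myosin Myh8 1.23 and Gadd45a 0.26, each wholly above WT. Of these 9, 3 lay wholly above WT and 0 wholly below, against 7.56% and 11.8% of all tested. Fbxo32 had 0.47 with overlap, and embryonic myosin Myh3, well above background on 3 arrays, was not kept.

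The genes whose values ran closest to each fully detected regulator over the 6 arrays, out of 14288 compared, are given as a description. For Myf6 they were Mtfp1, Cacna1s, Myo18b, Plpp7 and Dusp27, with r from 0.998 to 0.9986. For Mef2c they were Srpk3, Sema6c, Reep1, Hspb3 and Dmwd, with r from 0.9953 to 0.9988, and their fold changes ran from 0.30 (Dmwd) to 1.59 (Srpk3). For Mstn they were Prss55, Zfp945, Hhip, Myh4 and Wif1, with r from 0.9654 to 0.9916. Points on slide 1 or slide 2 share a slide, and with 6 points among so many genes a high r carries no weight of its own.

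Markers of other cells that make Mef2c or lie near the muscle sheet were measured beside these values. All 14 endothelial markers were kept, with a summed level of 53.2 to 60.7 in WT and 53.4 to 59.5 in KO and a median fold change of −0.07. Of 10 macrophage markers 9 were kept (104.2 to 154.5 in WT, 103.3 to 119.3 in KO, median −0.19). B cell markers Blk, Cd79a, Ms4a1 and Pax5 were kept by no group. The other 4 summed to 1.07 to 1.45 in WT and 0.90 to 1.14 in KO (median −0.51). Of these 4, 2 lay wholly below WT and 1 wholly above, against 11.8% and 7.56% of all tested. Smooth muscle markers summed to 69.0 to 109.0 in WT and 79.7 to 99.1 in KO (median −0.09), and adipocyte markers to 166.3 to 343.1 and 202.9 to 282.9 (median −0.26). Epidermal and dermal markers, 9 kept, summed to 4063 to 4172 in WT and to 3513 to 3788 in KO, without overlap. Not 1 of the 9 was higher on average in KO (median −0.17, against −0.085 over all genes). Wholly below WT lay 3 of the 9, against 11.8% of all tested, and none passed the test. Markers of the growing hair follicle were high in KO replicates 1 and 2, with summed levels of 320.2 and 214.1. They were at 7.86 in KO replicate 3 against 7.47 to 10.7 in WT. By these sums KO replicates 1 and 2 are at odds with the telogen description. The median fold change was 3.55 over 13 kept, of which 2 lay wholly above WT, against 7.56% of all tested. Myf6, Mef2c and Mstn lay above all WT arrays in each KO skin. In KO replicate 3 they stood 0.66, 0.30 and 0.44 log2 units over WT replicate 1, on the same slide. Whether hair growth bears on these levels was not tested. The part of these cells in the levels of the regulators was not tested.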

How the data were processed

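Agilent Feature Extraction 11.5.1.1 produced the spot intensity values that the authors deposited, per the file headers: background-subtracted, detrended, 1-colour signals with no normalization between arrays. Other deposited values, per the file headers, are flags for outliers and for spots well above background. The authors also deposited a log2 table; every column had a median of 6.80, and its making is not stated in these sources. After removing probe means over 30082 probes, each of its columns correlated best with an array of the opposite group (r 0.887 to 0.931) and at −0.583 to −0.192 with the array of its heading, so it was not used further. Groups come from the labels of the scanner files.

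Unflagged spots were averaged per probe on the log2 scale (31 of 55681 probes dropped), minus the 75th percentile of each array. Accessions were named through RefSeq GRCm38.p6; the array grid refers to mm9, so only the printed promoter windows carry coordinates. The filter kept 30082 probes, those that every array of WT or every array of KO measured well above background, and a gene was read from its brightest. KO was set against WT by limma 3.58.1 (R 4.3.3) without covariates, a fit tested on simulated data; Pax7 and Myf5 were read from the same fit without the filter. The files hold no mean signal, so normexp used median signals. Regulators, lists and tests were chosen with earlier results of these data known. Named are the 7 regulators, Sox4, up to 4 genes per list by smallest p (1 such gene is not reported here), and the 5 genes most like each fully detected regulator; some undetected list members and genes standing apart on 1 array were picked afterwards. The number of arrays limits the precision.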

Additional observations from a re-analysis of the deposited data

How the results depend on the processing

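In 16 alternative analyses the differences of Myf6 and Mstn stayed positive, as did that of Pax7, which was well above background on no WT array. Myf6 passed the limma threshold in 1 of them, without WT replicate 1, and no other regulator passed in any, so between 0 and 1 of the 7 passed with 1 array left out; Myf6 then ran from 1.68 to 2.50. Myog turned to −0.25 with normexp background correction, −0.0040 with slide as a block, −0.83 with age and −0.70 with the muscle fibre mean as a covariate, and ran from −1.10 to 1.01 with 1 array left out. With the fibre mean, Myod1 turned to −0.39 and Mef2c to −0.083. Myf5, undetected, ran from −0.57 to 0.12 with 1 array left out. The cause was not tested.

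The count of genes passing, 5 in the main analysis, was 8 with normexp, 11 with quantile normalization, 15 with the median as centre, 2 without a filter, 1 with slide as a block, 15 with slide as a random block, 141 with age and 0 with the fibre mean (803 at an unadjusted limma p under 0.05); with 1 array left out it ran from 2 to 303 (303 without WT replicate 1, 88 without KO replicate 3). Deviations of arrays with the same replicate number correlated at −0.13, −0.04 and 0.08, and those of other numbers at −0.08 to 0.13. With 3 arrays per group these values cannot tell whether the numbers pair the arrays. Under the replicate block the count was 0 of 22823, with 2217 at an unadjusted limma p under 0.05.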
